A study of Schizosaccharomyces pombe with 3 samples.

Results

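*seb1* and *red1* are 2 fission yeast genes for RNA-binding factors that act in gene silencing. They were taken by name from the study's list of 36 genes, mostly silencing factors but also the actin gene. All 36 could be placed on the tiling array used here. *seb1* (SPAC222.09, forward strand of chromosome I) was covered by 4 probes of its own strand and *red1* (SPAC1006.03C, reverse strand of chromosome I) by 5, out of 625 probes over the 36 genes and 174063 probes on the array. Each gene was placed at the one run of every other probe whose mean deposited log2 ratio equalled its listed values for *dhp1-1* replicate 1 and *din1Δ*. The probes were thus chosen by the measured ratios of those 2 arrays, and the genes were picked with results of these data known, so their own ratios are given as a description without a test. *dhp1-1* replicate 2 did not place any probe, and neither did the probes beside and opposite the genes.

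RNA depleted of ribosomal RNA was compared on 3 two-colour arrays of the strand-specific tiling microarray, with the mutant labelled with Cy5 and the wildtype with Cy3. Strain p1088 carried *dhp1-1*, a temperature-sensitive allele that encodes a truncated Dhp1 and whose end is partly replaced by *ura4*+, and was compared with wildtype strain p1087 on 2 arrays, labelled replicates 1 and 2. By the study's strain list p1088 also carries *ura4*+ at the outer centromere and *ade6*+ at *mat2*. Strain p1044 carried *din1Δ*, a deletion of *din1*, and was compared with wildtype strain p344 on 1 array, so *din1Δ* has no replicate. All cells grew at 30°C, a temperature at which *dhp1-1* cells survive. Whether a ratio comes from a change in all cells or in a share of the culture cannot be told apart. The *dhp1-1* replicate 1 and *din1Δ* arrays shared a slide and *dhp1-1* replicate 2 was on another. Dyes were not swapped, so a ratio against wildtype also holds any dye effect of a probe. A difference between the mutants also holds any difference between the 2 wildtype strains. Its test assumes that the single *din1Δ* array varies like the *dhp1-1* arrays. The labels do not say whether the replicates came from separate cultures, so p-values measure only the spread between these arrays. The *dhp1* and *din1* genes themselves were not analysed here.

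Seb1 binds nascent RNA and the tail of RNA polymerase II. It acts in the processing of transcript 3′ ends and in heterochromatic silencing. Red1 is a zinc-finger protein that works with the YTH-domain protein Mmi1 to remove meiotic transcripts from growing cells through the nuclear exosome, and it is also linked to islands of heterochromatin at meiotic genes. Dhp1 is the nuclear 5′ to 3′ exoribonuclease, the fission yeast Rat1/Xrn2, which degrades the RNA left on the polymerase after cleavage at the 3′ end. Din1, the homologue of Rai1, is its partner.

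In *dhp1-1* cells *seb1* RNA was above wildtype on both arrays, and in *din1Δ* cells it was below. The mean log2 ratio of mutant to wildtype over the 4 *seb1* probes was 0.45 in *dhp1-1* replicate 1, 0.58 in replicate 2 and -0.47 in *din1Δ*. These are 1.36, 1.5 and 0.723 times the wildtype signal. Both *dhp1-1* arrays lay above the *din1Δ* array, and the *dhp1-1* mean was 0.51 ± 0.094 (SD, n = 2). The difference from *din1Δ* was 0.92 for replicate 1, which shared its slide, and 1.05 for replicate 2. Ratios were computed from spot intensities after correction for local background and loess normalization within each array. All 4 probes were above background in both channels on all 3 arrays.

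The change in *seb1* was not even along the gene. Probes are taken here from 5′ to 3′, an order inferred from the strand of the gene and the parity of the probe numbers. The 5′-most probe had log2 ratios of 0.24, 0.01 and 0.62 in *dhp1-1* replicate 1, replicate 2 and *din1Δ*. It was thus the lowest of the 4 in *dhp1-1* and the only one above 0 in *din1Δ*. The second probe had ratios of 0.50, 0.73 and -0.85. The third had 0.58, 1.02 and -0.73. The fourth had 0.46, 0.57 and -0.92. The 3 probes away from the 5′ end therefore carried the difference between the mutants. Without the 5′-most probe, a choice made after its values were seen, the mean was 0.52, 0.77 and -0.83.

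**Figure D1:**
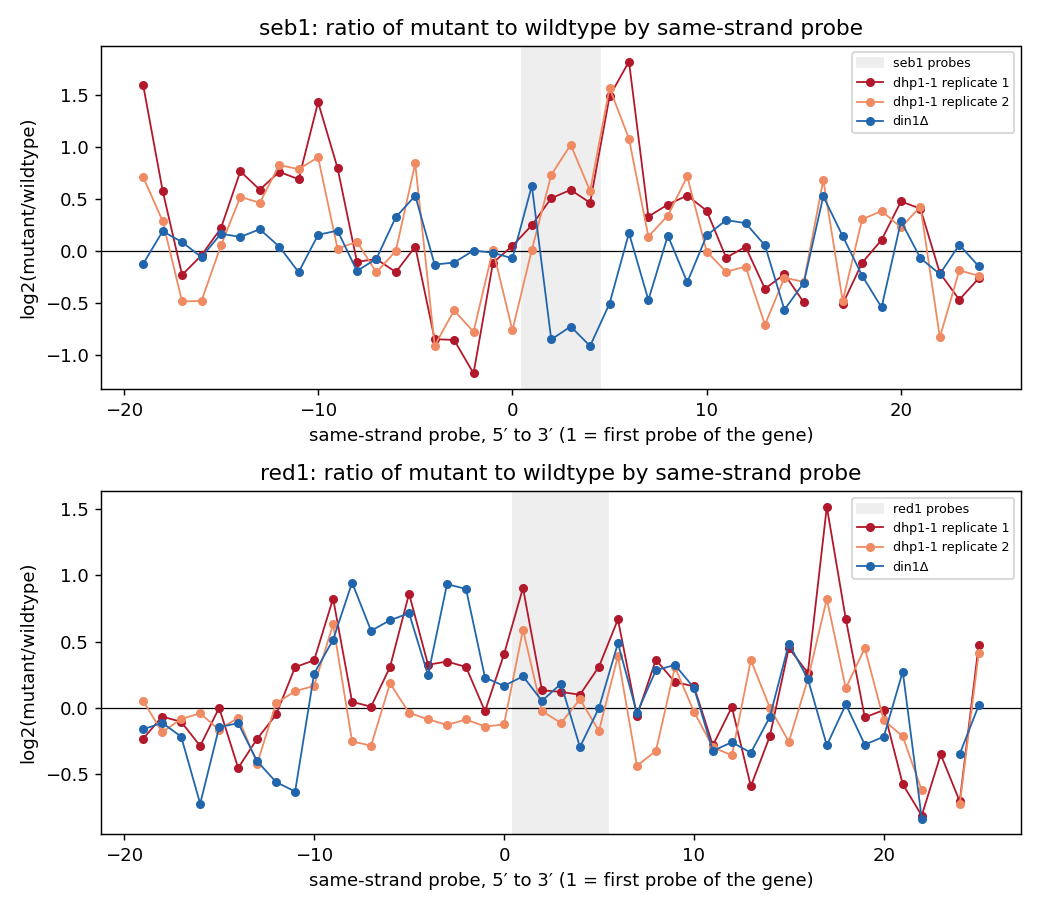
Log2 ratio of mutant to wildtype by same-strand probe along *seb1* (top) and *red1* (bottom) with 20 probes on either side, for *dhp1-1* replicates 1 and 2 and *din1Δ*. The shaded 4 *seb1* probes separate *dhp1-1* from *din1Δ* from the second probe on, and the next probe reaches 1.48 and 1.56 in *dhp1-1*, while the 5 *red1* probes lie between -0.29 and 0.91 on all arrays.

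*red1* RNA was close to wildtype on most probes. The mean log2 ratio over its 5 probes was 0.32 in *dhp1-1* replicate 1, 0.07 in replicate 2 and 0.04 in *din1Δ*, or 1.24, 1.05 and 1.03 times wildtype. The *dhp1-1* mean was 0.19 ± 0.173 (SD, n = 2), a value close to its own spread. Both *dhp1-1* replicates lay above *din1Δ*, by 0.28 and 0.03, so replicate 2 and *din1Δ* were nearly level. The 5′-most probe was the highest on every array, with 0.91, 0.59 and 0.24. The other 4 probes ranged from 0.10 to 0.31 in replicate 1, from -0.17 to 0.07 in replicate 2 and from -0.29 to 0.18 in *din1Δ*. Leaving out the 5′-most probe, again a choice made after seeing it, gave 0.17, -0.06 and -0.01, so the *dhp1-1* mean dropped to 0.05. All 5 probes were above background in both channels on all arrays.

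The log2 ratios deposited by the authors are 0 wherever the scanner software gave p of at least 0.05. Those of *dhp1-1* replicate 1 and *din1Δ* placed the genes, so counts of them are a description, and nothing is read from them. For *seb1*, 3 of 4 probes were not 0 in each *dhp1-1* replicate and 4 of 4 in *din1Δ*. For *red1*, 1 of 5 probes was not 0 in each *dhp1-1* replicate and 0 of 5 in *din1Δ*. Most *red1* probes are therefore listed there at 0. So are 64.4%, 72.5% and 71.1% of all probes on *dhp1-1* replicate 1, replicate 2 and *din1Δ*.

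Windows of the same number of probes over the whole array put these means in scale. From the 5th to the 95th percentile, windows of 4 same-strand probes ran from -0.52 to 0.84 in *dhp1-1* replicate 1, from -0.51 to 0.70 in replicate 2 and from -0.56 to 0.54 in *din1Δ*. *seb1* was inside that range on each array, toward its upper end in *dhp1-1* and its lower end in *din1Δ*. Its *din1Δ* mean did not pass 1.6-fold, which 1.83% of 20-probe tiles did (1.52% lower). Such tiles vary less than windows of 4 probes, with a *din1Δ* 5th percentile of -0.41 against -0.56. The share past 1.6-fold was not computed for windows of 4 probes. The range for windows of 5 probes was -0.50 to 0.81, -0.49 to 0.67 and -0.54 to 0.52, and *red1* was well inside it on all 3. For single probes above background, the 2 *dhp1-1* replicates differed by a median of 0.25 and by less than 0.74 in 95% of 105000 probes. A *dhp1-1* ratio over 1 above that of *din1Δ* in both replicates was found at 3 of 4 *seb1* probes and 0 of 5 *red1* probes, against 2.94% of all probes. As these values chose the genes, nothing is read from that count.

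The first probe beyond the 3′ end of *seb1* had larger *dhp1-1* ratios than the gene itself. The first same-strand probe downstream had log2 ratios of 1.48 and 1.56 in *dhp1-1* and -0.51 in *din1Δ*. The second had 1.82 and 1.08 in *dhp1-1* and 0.17 in *din1Δ*. The first was higher than any *seb1* probe in both replicates, and the 3 after the second were not well above background in wildtype on either *dhp1-1* array. In a limma fit over 172358 single probes with Benjamini-Hochberg adjustment, the first downstream probe passed the adjusted threshold of 0.05 in *dhp1-1*, with a mean of 1.52 ± 0.058 (SD, n = 2 arrays; limma adjusted p = 8.47e-14). Its difference from *din1Δ* passed as well (adjusted p = 6.33e-08). In that fit 13.2% of all probes were called higher in *dhp1-1*, and 6.09% were called higher and 4.41% lower than in *din1Δ*. The fit borrows the spread from all probes, since each probe has 2 *dhp1-1* values, and this probe was singled out after its values were seen. It was above background in wildtype on all 3 arrays. The second was not above background in wildtype on *dhp1-1* replicate 2, so its 1.08 there has no settled size and no mean or test is given for it.

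At 16 listed genes of the sparsely covered region of the array the strand could be settled, and among these the first downstream probe was highest at *seb1* in *dhp1-1* and lowest at *seb1* in *din1Δ*. Some of the 16, *rrp6* among them, matched more than 1 probe run and the first was used, so their first downstream probe is not certain. Its *dhp1-1* mean was 1.52, and the next highest gene had 0.66. Averaged with the second probe, whose wildtype signal was not above background in *dhp1-1* replicate 2, it was 1.65, 1.32 and -0.17 on the 3 arrays. That average was again the highest of 16 in *dhp1-1*, but in *din1Δ* it ranked 14 of 16 and was no longer the lowest. Of all 87023 windows of 2 neighbouring same-strand probes, 2.05% were more than 2-fold above wildtype in both *dhp1-1* replicates. At *red1* the first downstream probe ranked 3 of 16 in *dhp1-1* and 5 of 16 in *din1Δ*. It was moderately high on every array, with 0.67, 0.39 and 0.49 and a *dhp1-1* mean of 0.53 (n = 2 arrays; limma adjusted p = 0.024), and its difference between the mutants did not pass (adjusted p = 0.963). With the second probe the mean was 0.31, -0.02 and 0.23. It is not known how far the 3′ end of either transcript reaches past its last listed probe, because probes were placed by number and not by genome position.

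**Figure D2:**
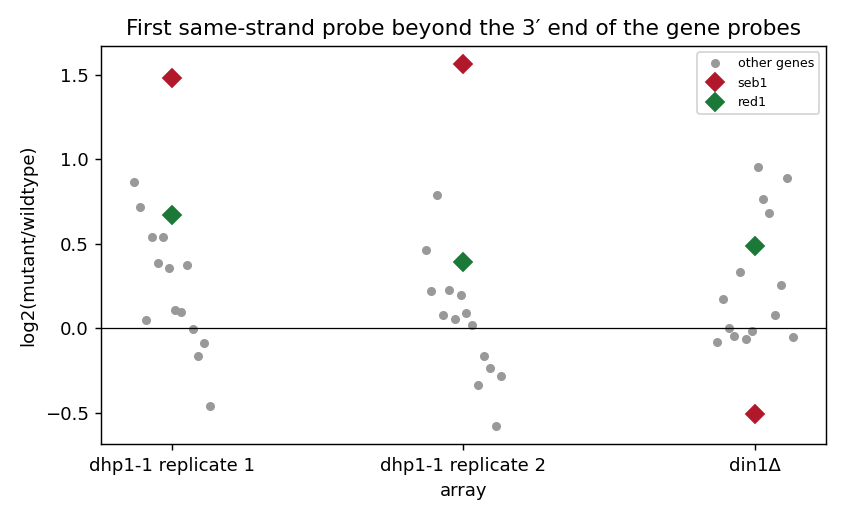
Log2 ratio of mutant to wildtype at the first same-strand probe beyond the 3′ end of 16 listed genes, 1 point a gene, on each array. *seb1* stands at 1.48 and 1.56 in the *dhp1-1* replicates and at -0.51 in *din1Δ*, while *red1* lies between 0.39 and 0.67.

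Upstream of *seb1* the *dhp1-1* ratios went both ways, lower near the gene and higher farther off. The third probe before the run had -1.18 and -0.78 in the *dhp1-1* replicates and 0.00 in *din1Δ* (*dhp1-1* mean, limma adjusted p = 3.55e-06 over all probes). Its wildtype signal was above background on all 3 arrays, and its mutant signal on all but replicate 2. The fourth and the fifth were called lower too, but no size is given. At the fourth neither channel was above background on any array, and at the fifth the *dhp1-1* signal was not above background in either replicate. Of the 2 probes nearest the gene, the nearer was not above background in either channel on any array. Farther upstream, 6 probes were called higher in *dhp1-1*. The farthest, at step 20, had 1.59 and 0.71 against -0.13 in *din1Δ*. The others stood 11 to 15 probes from the gene. That at step 13 had 0.76 and 0.82 against 0.04, and that at step 11 was recorded at 1.43 and 0.90 with wildtype not above background on any array. Over the 20 upstream same-strand probes, 6 were called higher and 3 lower in *dhp1-1*, and over the 19 tested downstream ones 3 and 3. The background for single probes is 13.2% higher and 7.96% lower, 21.2% in all. On the same strand around *red1* the counts were smaller: 1 higher and 0 lower of 20 upstream, and 2 higher and 2 lower of 19 downstream.

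**Figure D3:**
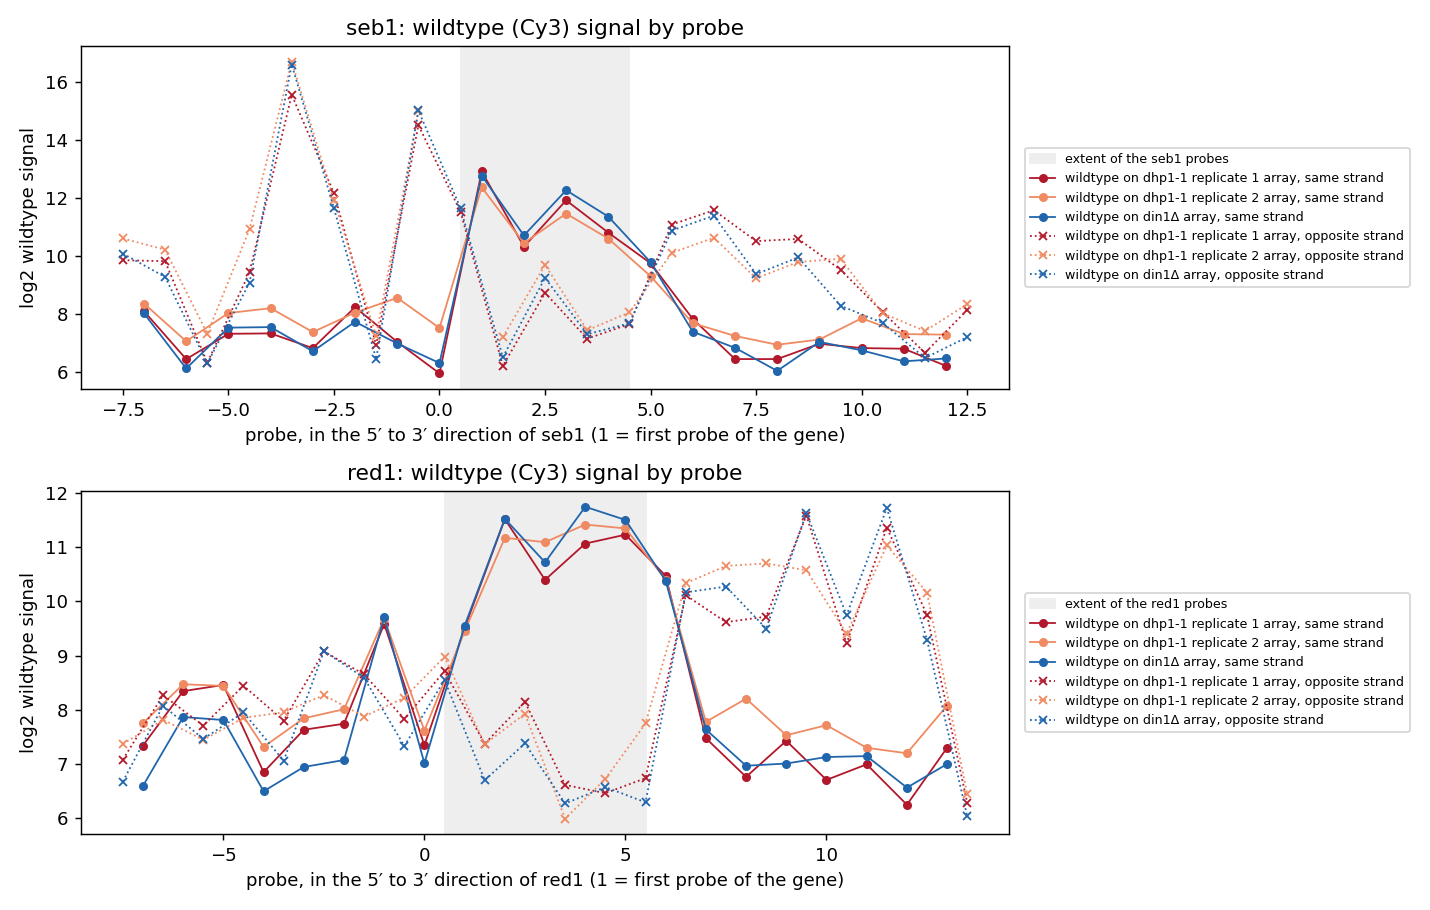
Wildtype (Cy3) signal in log2 units on each array by probe, for the strand of the gene and the opposite strand, at *seb1* (top) and *red1* (bottom) and 8 probes on either side. Same-strand signal over *seb1* lies at 10.32 or more and over *red1* at 9.45 or more on every array. The signals of different probes are shown for their background and are not compared, since probes differ in response.

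In wildtype both genes were transcribed, and their own strand was well above background. The 4 *seb1* probes ranged from 10.32 to 12.91 log2 units in the wildtype channel of the *dhp1-1* replicate 1 array, and the 5 *red1* probes from 9.51 to 11.52. The opposite strand within *red1* was above background at 3, 1 and 2 of 6 probes in wildtype on the 3 arrays. Its *dhp1-1* ratios ranged from -0.30 to 0.47, and none of the 6 probes was called. Within *seb1* 1 of the 4 tested opposite-strand probes was called higher in *dhp1-1*, the 3′-most, with 0.57 and 0.74 against -0.08 in *din1Δ* (limma adjusted p = 0.00361 over all probes). Over all single probes 13.2% were called higher and 21.2% in either direction, so nothing is read from these 2 counts. The 5′-most of the 5 opposite probes was an outlier spot in replicate 2 and was left out there.

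Opposite-strand probes next to the 5′ end of *seb1* had the largest ratios near either gene. The nearest had 3.22, 2.22 and 3.03 in *dhp1-1* replicate 1, replicate 2 and *din1Δ*, so it was high in both mutants. The mutants did not differ by the test there (adjusted p = 0.64), and a change in both mutants and a dye effect of the probe cannot be told apart. The next was above background in *dhp1-1* on both arrays but not in wildtype on any array, so its recorded ratios of 2.17 and 1.49 have no settled size, and in *din1Δ* it was above background in neither channel. The third had -1.74 and -2.13 in *dhp1-1* and 1.04 in *din1Δ* (difference, limma adjusted p = 3.18e-16), the reverse order. The fifth had -1.57 and -1.50 against 0.57 (difference, limma adjusted p = 1.85e-08). The probe between those had 15.55 to 16.69 log2 units in wildtype and ratios of -0.26, 0.05 and 0.22. In the order of the reference gene table, *sno1* and *hri2*, both on the reverse strand, precede *seb1*, and *byr4*, also on the reverse strand, follows it. Which probe belongs to which of these genes was not determined. *red1* lies between *asa1* on the forward strand and *mcp3* on the reverse strand. On its opposite strand 0 probes were called higher and 1 lower of 20 upstream, and 4 higher and 2 lower of 19 downstream. Opposite *seb1* 3 were called higher and 2 lower of 19 tested upstream, and 3 and 3 of 20 downstream. The background for single probes is 13.2% higher and 7.96% lower. The first opposite-strand probe downstream of *red1* had -0.46 and -0.70 in *dhp1-1* against 0.20 in *din1Δ* (*dhp1-1* mean, limma adjusted p = 0.012). The third had -0.32 and -0.66 against 0.63, and it also differed between the mutants (limma adjusted p = 0.00857).

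**Figure D4:**
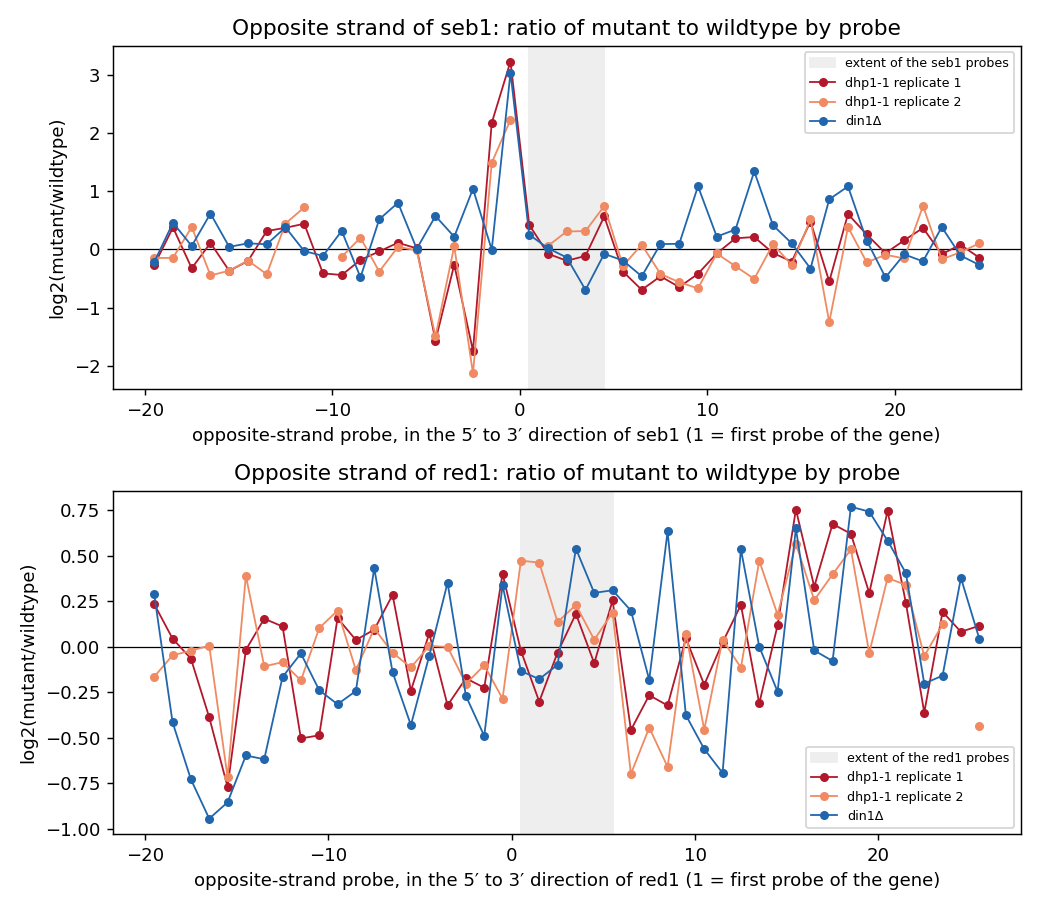
Log2 ratio of mutant to wildtype by opposite-strand probe along *seb1* (top) and *red1* (bottom) with 20 probes on either side. Probes stand between the steps of the gene's own probes because the strands alternate. Before the 5′ end of *seb1* single probes range from -2.13 to 3.22, while opposite *red1* itself none passes 0.54.

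Summed over wider stretches, the surroundings of neither gene passed the test. For each gene 5 stretches were tested in a limma fit over 8748 features: the opposite strand within the gene, and 20 probes upstream and downstream on either strand. In *dhp1-1* against wildtype 0 of 5 were called at *seb1* and 0 of 5 at *red1*, against a background of 29.2% of all features (18.8% higher and 10.5% lower). At an unadjusted p under 0.05, 1 stretch passed at *seb1* and 0 at *red1*. The opposite strand of *seb1* came closest, with a mean of 0.24 ± 0.167 (SD, n = 2 arrays; limma adjusted p = 0.0543). That stretch holds only 5 probes, while its test shares its spread with tiles of 20. The 20 same-strand probes upstream of *seb1* averaged 0.13 and those downstream 0.15 (adjusted p = 0.315 and 0.230). The corresponding *red1* values were 0.05 and 0.02 (adjusted p = 0.759 and 0.879). For *dhp1-1* minus *din1Δ* 0 of 10 stretches were called, against 13.5% of all features (8.82% higher in *dhp1-1*), and at an unadjusted p under 0.05, 2 passed at *seb1* and 0 at *red1*.

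The stretch chosen changes this result at *seb1*. With 10 probes on either side 3 of its stretches were called in *dhp1-1*: downstream on the same strand at 0.34, upstream on the same strand at -0.24 and downstream on the opposite strand at -0.27 (limma adjusted p = 0.00571, 0.043 and 0.0225). These tests share their spread with tiles of 20 probes, and shorter stretches vary more. In *dhp1-1* replicate 1 the 5th to 95th percentile ran from -0.52 to 0.84 for windows of 4 probes and from -0.39 to 0.66 for tiles. The p-values of stretches with under 20 probes are therefore likely too small. Limiting the main stretches to probes above background on all 3 arrays gave 2 calls with either filter. Opposite *seb1* only the 5′-most, the middle and the 3′-most probe then remained. The 5′-most was an outlier in replicate 2, so the replicates averaged different probes there. With 1 channel above it, these were the opposite strand at 0.39 and downstream on the same strand at 0.37 (limma adjusted p = 0.00619 and 0.0122). The fifth downstream probe, at 0.53 and 0.71 in *dhp1-1*, passed on those arrays only through its mutant channel, as did the second in replicate 2. Downstream probes at steps 13 and 18, called lower, were dropped. With both channels required, that stretch was 0.21 and not called (limma adjusted p = 0.208), so nothing is read from its call. With both channels above it, they were the opposite strand at 0.39 and upstream on the same strand at 0.48 (limma adjusted p = 0.0265 and 0.00763). Upstream probes at steps 3, 4 and 5, all those called lower in *dhp1-1*, were then dropped. Steps 3 and 5 failed only because their *dhp1-1* signal was not above background. Of the upstream probes called higher, only that at step 11 was dropped, where wildtype was not above background. The filter thus selects on the ratio itself, so nothing is read from the upstream call. At *red1* 0 stretches were called under any setting tested.

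Of the 6 listed genes that act in nuclear RNA surveillance, *seb1* had the highest mean ratio in both *dhp1-1* replicates and the lowest in *din1Δ*. *rrp6*, the nuclear exonuclease of the exosome, had 0.38, 0.17 and 0.00. *mmi1*, which encodes the partner of Red1, had -0.07, 0.14 and -0.31. *air1*, a zinc-knuckle subunit of the TRAMP complex, had 0.20, -0.20 and 0.08, and *cid14*, its poly(A) polymerase, had 0.29, -0.03 and 0.49. The replicates thus fell on both sides of 0 for *mmi1*, *air1* and *cid14*. More than 1 probe run matched *mmi1*, *rrp6*, *cid14* and *ago1*, and the first was used. The run of *cid14* lies on the strand opposite to its locus tag. The list median was 0.30, 0.10 and 0.02, against -0.05, -0.20 and 0.05 for the 36 genes and 0.03, 0.02 and 0.01 for all 8702 tiles of 20 probes. *seb1* ranked 1, 1 and 35 of the 36, and *red1* 3, 5 and 19. Values of *dhp1-1* replicate 1 and *din1Δ* placed all these genes, and the list median includes *seb1* and *red1* themselves. The ranks and medians are therefore a description, and nothing is read from them.

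**Figure D5:**
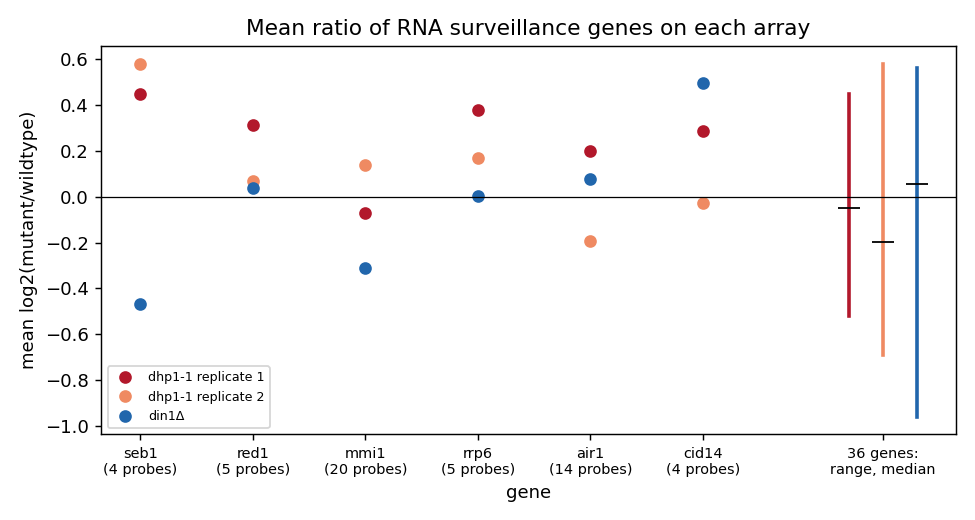
Mean log2 ratio of mutant to wildtype on each array for the 6 RNA surveillance genes, with the range and median of all 36 listed genes at the right. *seb1* reaches the top of the range in both *dhp1-1* replicates and lies at -0.47 in *din1Δ*, and *red1* lies between 0.04 and 0.32.

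The listed genes whose 3 ratios came closest to those of *seb1* were *rrp6*, *mmi1* and *red1*, at Euclidean distances of 0.629, 0.701 and 0.731 log2 units over the 3 arrays. None was near. Each of them lay below *seb1* in both *dhp1-1* replicates and above it in *din1Δ*. *red1* had closer matches: *rrp6* at 0.123, *air1* at 0.292 and *ago1*, the Argonaute of the RNAi pathway, at 0.301, where the placements of *rrp6* and *ago1* are not unique. In probe order *seb1* falls between *rrp6* and *rdp1*, the RNA-dependent RNA polymerase gene, which had 0.12, -0.13 and 0.31. *red1* comes after *clr2*, a gene of the SHREC silencing complex, with -0.52, -0.69 and -0.19. The *seb1* pattern, up in both *dhp1-1* replicates and down in *din1Δ*, was shared with neither neighbour.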

How the data were processed

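Per the submitters' processing notes, spots were read with Agilent Feature Extraction 10.7.3.1. What the authors deposited are intensities of spots and local background, the log10 ratio of Cy5 to Cy3 with its p-value from the scanner software, and flags. Their deposited log2 table equals that ratio, with 0 wherever the p-value is 0.05 or more (64.4%, 72.5% and 71.1% of probes on *dhp1-1* replicate 1, replicate 2 and *din1Δ*); all its columns were used (0 left out). Each array holds 180880 spots, 177440 of them not controls, with 0 saturated and 476, 1529 and 816 outlier spots, which were left out. Wildtype signal was above background at 71.7%, 67.3% and 67.2% of spots. The number of arrays limits the precision.

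Median spot intensities were corrected by normexp (offset 50) and loess in limma 3.58.1 (R 4.3.3). Tables and plots used Python 3.11.15, numpy 2.4.6, pandas 2.3.3 and matplotlib 3.10.9. Genes were placed within 1e-08 log2 units. All 36 were placed, 26 by 1 run, and in each chromosome the placed genes kept the order of the reference gene table (ASM294v3, used for names and order only). The scanner header and the study name different genome builds, so no coordinates are given. On chromosome I, 1 of 12 genes lay against the strand rule. lmFit and eBayes were run over 8702 tiles, the 36 genes and 10 surroundings, all 3 arrays sharing 1 spread, with Benjamini-Hochberg adjustment. Tested on simulated data over 8702 tiles, 99 of 100 shifts of 0.5 were found and 14 unchanged tiles were called. The simulated arrays held no dye or wildtype strain effect and single probes were not fitted, so this does not bear on calls of single probes. The members, lists and alternatives were chosen with earlier results of these data known. Named genes were *seb1*, *red1*, the surveillance list, the 3 closest genes by Euclidean distance, those placed next in probe order, and table neighbours without values.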

Additional observations from a re-analysis of the deposited data

Results flagged for a closer look

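The mean *seb1* ratio differed between the mutants by 0.98 log2 units (*dhp1-1* minus *din1Δ*), with both *dhp1-1* replicates above wildtype and the single *din1Δ* array below it. The opposite directions drew attention to it, and the difference was not tested, because the same values placed the probes.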

How the results depend on the processing

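*seb1* kept its direction in both mutants under every alternative run, and its value moved in some. In *dhp1-1* it was 0.40 with median centring and 0.45 to 0.58 with either replicate left out, and without the 5′-most probe, an alternative added after seeing the data, it was 0.64. In *din1Δ* it was -0.79 as a median over probes and -0.83 without the 5′-most probe. *red1* was 0.07 to 0.32 in *dhp1-1* with either replicate left out. The called *seb1* stretches went from 0 to 2 with probes above background in 1 channel or in both, and to 3 with 10 probes on either side. The tiles called in *dhp1-1*, 2545 of 8702, became 1687 with median centring, 5009 in tiles of 10 probes, 1182 in tiles of 40 and 13 with the deposited log2 table (2110 at an unadjusted p under 0.05), where 76.9% of calls were higher in place of 64.4%. Among the tested stretches, 1 change of sign was past the threshold. At *seb1* the same strand upstream was -0.24 (adjusted p = 0.043) with 10 probes and -0.0347 with 40, and the opposite strand upstream was -0.0684 with either background filter, -0.12 as a median and -0.0549 with 40 probes. At *red1* in *dhp1-1*, upstream on the same strand was -0.0884 with the scanner ratio and -0.0269 as a median, downstream on the same strand was -0.0147 as a median, upstream on the opposite strand was 0.0193 with median centring and 0.0009 with 40 probes, downstream on the opposite strand was -0.0734 with 10 probes, and the opposite strand was -0.0936 with the deposited table. For *dhp1-1* minus *din1Δ* at *red1*, the opposite strand was -0.0038 without background correction, -0.0076 as a median, -0.23 by the LogRatio of the scanner and -0.0936 from the deposited log2 values, downstream on the same strand was -0.0679 from the latter, and downstream on the opposite strand was 0.0714 as a median. Values without a test changed sign too: *red1* in *din1Δ* went from 0.04 to -0.015 with the scanner ratio and to -0.01 without the 5′-most probe, and 3 of 22 values did so without *dhp1-1* replicate 1, 3 of 22 without replicate 2 and 2 of 10 within the shared slide, with sizes of at most 0.12. The cause of these changes was not tested.

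No paired analysis was possible because replicate 1 is the sole number that *dhp1-1* and *din1Δ* have in common. With 1 replicate left out, or with slide as a block, no residual degrees of freedom remain, so these are values without a test. Other placements were not run, since *seb1* and *red1* each had 1 matching run. Probes near background, 2 *dhp1-1* arrays and 1 *din1Δ* array limit what can be told.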
